A study of Mus musculus with 7 samples.

Results

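The 9 genes described here encode core parts of the spindle assembly checkpoint: the kinases Ttk and Bub1, the kinase-like Bub1b (BubR1), Bub3, Mad1l1 (Mad1), Mad2l1 (Mad2), the Mad2 inhibitor Mad2l1bp (p31comet), the kinetochore protein Zw10 and the checkpoint's target Cdc20. They were chosen by gene name for their role, not by their values, though earlier results of these data were known. All 9 were found among the 24341 genes of the deposited table. Expression was measured by RNA-seq of bulk B-cell precursor (BCP) cells from mouse spleen, sorted for the surface enzyme BP-1. All 7 samples came from hemizygotes of the Emu-Ret (Eμ-Ret) transgene, a Ret fusion gene driven by the IgH enhancer and so active in the B lineage, on a BALB/c background. The leukemic group held 3 samples from moribund older mice with overt disease, and the preleukemic group held 4 samples from young, healthy mice that carry the same transgene. No transgene-negative BCP sample was compared, and age, disease and the time of sampling cannot be told apart in this design. The design text gives as many mice as samples in each group, but no label names the mouse of a sample, and the p-values measure the spread between these samples. Leukemic samples are replicates 1 to 3 and preleukemic samples replicates 1 to 4, and the numbers do not pair them.

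The spindle assembly checkpoint delays anaphase until every chromosome is attached to the spindle. At unattached kinetochores Ttk (Mps1) phosphorylates the scaffold Knl1, which recruits Bub3 with Bub1 and Bub1b, and Mad1 bound there converts Mad2 into the form that captures Cdc20. Mad2, Bub1b, Bub3 and Cdc20 form the mitotic checkpoint complex, which inhibits the anaphase-promoting complex (APC/C), the ubiquitin ligase that marks securin and cyclin B for destruction. Transcripts of several of these genes are known to peak in G2 and mitosis, and the checkpoint is best known in leukemia biology because its failure can lead to gain or loss of whole chromosomes.

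None of the 9 checkpoint genes passed the test between leukemic and preleukemic BCP cells, where 14.7% of all genes tested passed in either direction. Each of the 9 had a higher mean in the leukemic samples on the scale as deposited, where 5045 of the 10541 genes tested had a log2 fold change above 0. The log2 fold changes of FPKM + 1 (a count of fragments scaled to transcript length and depth, with 1 added before the logarithm) ran from 0.09 for Bub3 to 0.58 for Ttk, with a median of 0.38 against -0.02 over the 10541 genes tested. On that scale FPKM sums were 507355 to 539887 in the leukemic and 448022 to 471447 in the preleukemic samples, without overlap. After each sample was scaled to the same FPKM sum, the median of all genes was -0.17 and that of the 9 was 0.22. The difference of Bub3 was then -0.07 and the other 8 stayed above 0. Mad2l1bp and Zw10 had leukemic values that all lay above the preleukemic values, as did 14.9% of all genes tested. In the remaining 7 of the 9 genes the groups overlapped. Leukemic replicate 1 was the highest of the 7 samples and preleukemic replicate 2 the lowest in each of those 7.

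Promoter sequence is shown for 6 genes: Ttk, Bub1b, Bub1, Mad2l1 and Cdc20, which had the widest ranges of the 9 over the 7 samples (3.67-, 3.33-, 2.93-, 2.64- and 2.49-fold), and Mad2l1bp, which did not follow them. Each line runs 5′ to 3′ on the gene's strand from base 190 to base 11 before the RefSeq start, on GRCm38.p6 (the GRCm38 build of the table). All 9 genes were found in the RefSeq promoter windows, and Bub3 and Mad1l1 had 2 windows each. Capitals mark matches to 3 sets of letters tied to cell cycle genes: TTTGAA or TTCGAA (the cell cycle genes homology region, CHR), CCAAT (the NF-Y box) and GCGGGAA (an E2F site), on either strand, so that ATTGG is CCAAT read on the other strand. The printed stretch was chosen after the matches were seen.
Bub1, chr2:127831870-127832049, minus strand: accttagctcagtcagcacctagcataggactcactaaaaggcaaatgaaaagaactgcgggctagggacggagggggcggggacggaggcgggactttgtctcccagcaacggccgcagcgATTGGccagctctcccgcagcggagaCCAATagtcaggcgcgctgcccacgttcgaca
Bub1b, chr2:118598021-118598200, plus strand: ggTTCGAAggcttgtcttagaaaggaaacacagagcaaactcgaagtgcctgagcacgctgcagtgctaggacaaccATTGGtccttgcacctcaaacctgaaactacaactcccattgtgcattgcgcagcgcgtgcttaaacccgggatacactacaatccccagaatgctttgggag
Mad2l1, chr6:66535031-66535210, plus strand: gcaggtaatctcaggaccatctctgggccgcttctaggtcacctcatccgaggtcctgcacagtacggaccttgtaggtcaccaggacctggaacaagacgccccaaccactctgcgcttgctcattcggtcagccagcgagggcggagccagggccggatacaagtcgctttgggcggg
Ttk, chr9:83834499-83834678, plus strand: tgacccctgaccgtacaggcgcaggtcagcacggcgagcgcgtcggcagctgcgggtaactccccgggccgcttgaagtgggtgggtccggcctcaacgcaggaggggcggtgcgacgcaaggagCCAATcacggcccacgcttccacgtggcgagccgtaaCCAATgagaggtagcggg
Cdc20, chr4:118437354-118437533, minus strand: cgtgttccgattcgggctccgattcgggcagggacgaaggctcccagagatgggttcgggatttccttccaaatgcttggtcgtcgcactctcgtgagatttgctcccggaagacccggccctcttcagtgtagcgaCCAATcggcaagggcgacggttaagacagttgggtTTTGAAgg
Mad2l1bp, chr17:46153562-46153741, minus strand: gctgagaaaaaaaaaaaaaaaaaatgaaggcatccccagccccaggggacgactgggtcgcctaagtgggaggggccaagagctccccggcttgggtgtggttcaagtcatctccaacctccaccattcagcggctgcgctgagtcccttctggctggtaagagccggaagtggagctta

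In the 250 bases before the start, Bub1 and Ttk held 2 CCAAT matches each and no CHR match. Bub1b held 1 CHR and 1 CCAAT match. Cdc20 held a CHR match at bases 18 to 13 before the start and 2 CCAAT matches, the second at bases 8 to 4 and so past the end of the printed line. Bub3, not printed, held 1 CHR and 2 CCAAT matches in each of its 2 overlapping windows, and Zw10 held 1 E2F and 1 CHR match. Mad1l1, Mad2l1 and Mad2l1bp held none of the letters searched. Of all 32851 windows searched in the same way, 17.15% held the CHR letters, 33.85% held CCAAT, 3.817% held the E2F letters and 6.021% held both CHR and CCAAT, as did those of Bub1b, Bub3 and Cdc20. The matches are letters only, and Mad2l1, one of the 5 genes of wide range, held none in the bases searched. The deposited data start Mad2l1 at base 66535467, downstream of the RefSeq start at 66535221. The bases between these 2 starts were not searched.

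FPKM is scaled to transcript length, so levels can be set side by side between genes. Bub3, the WD-repeat adaptor that carries Bub1 and Bub1b to kinetochores, had the highest mean FPKM of the 9, 103.5 over the leukemic and 97.4 over the preleukemic samples. Over all 7 samples Cdc20 followed at 71.1, Bub1b at 61.6 and Mad2l1 at 49.4. Mad2l1bp at 28.0, Zw10 at 25.9, Ttk at 25.5 and Mad1l1 at 24.9 lay close together, and Bub1 was lowest at 18.9. The ranges over samples of every neighbouring pair in this order overlapped. Within samples, Bub1b was above Mad2l1, Mad2l1 above Mad2l1bp and Mad1l1 above Bub1 in 7 of 7, whereas Zw10 was above Ttk in 4 of 7 and Ttk above Mad1l1 in only 2 of 7, so the order among those 3 genes is not settled by these samples.

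**Figure D1:**
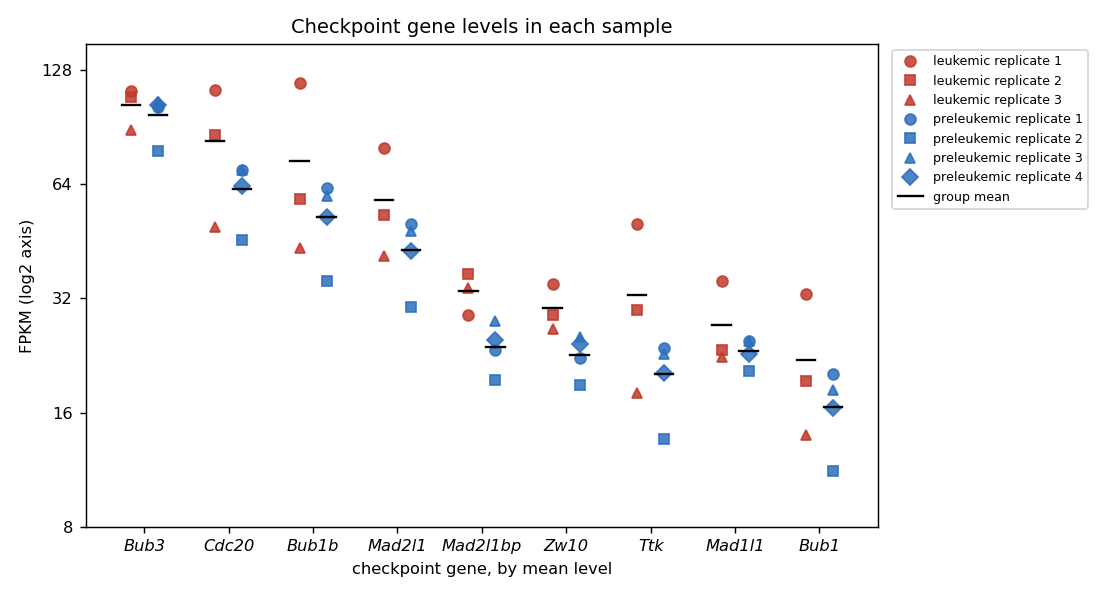
FPKM (vertical log2 axis) of each checkpoint gene in the 3 leukemic (red) and 4 preleukemic (blue) samples, with a black line at each group mean and genes ordered by mean level. Leukemic replicate 1 (red circle) is highest in all genes but Mad2l1bp and preleukemic replicate 2 (blue square) is lowest in all 9; only Mad2l1bp and Zw10 have groups that do not overlap.

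Ttk (chr9:83834688-83872390), the kinase that starts checkpoint signalling, had an FPKM of 50.2, 29.9 and 18.0 in leukemic replicates 1 to 3 and of 23.7, 13.7, 22.9 and 20.4 in preleukemic replicates 1 to 4. Its leukemic samples spanned 2.79-fold, and leukemic replicate 3 lay below 3 of the 4 preleukemic samples. The group means were 32.7 ± 16.3 (SD, n = 3) and 20.2 ± 4.56 (SD, n = 4), and the log2 fold change of 0.58 ± 0.34 (SE), the largest of the 9, had a 95% interval of -0.20 to 1.37 (limma, adjusted p = 0.256).

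Bub1 (chr2:127800199-127831859), the kinase that phosphorylates histone H2A at the centromere, had an FPKM of 32.8, 19.3 and 13.98 in the leukemic samples and of 20.2, 11.2, 18.3 and 16.4 in the preleukemic samples. Bub1b (chr2:118598210-118641592), its paralog that binds Cdc20 within the checkpoint complex, had an FPKM of 119, 58.7 and 43.6 in the leukemic samples and of 62.5, 35.6, 59.6 and 52.4 in the preleukemic samples. In both genes leukemic replicate 1 stood well above the other 6 samples, and leukemic replicates 2 and 3 fell among the preleukemic values. The log2 fold change was 0.34 ± 0.30 (SE) for Bub1 (95% interval -0.36 to 1.04, limma adjusted p = 0.441). It was 0.38 ± 0.34 (SE) for Bub1b (95% interval -0.42 to 1.19, limma adjusted p = 0.455). Without leukemic replicate 1 these were 0.02 and -0.02, so the difference of both genes rested on that sample.

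Mad1l1 (chr5:140008688-140321552), the kinetochore receptor of Mad2, had an FPKM of 35.7, 23.5 and 22.5 in the leukemic samples and of 24.7, 20.7, 24.8 and 22.8 in the preleukemic samples. Its preleukemic samples spanned only 1.20-fold, the narrowest range of any member in either group. Mad2l1 (chr6:66535467-66540991), the subunit that seizes Cdc20, had an FPKM of 79.9, 53.1 and 41.5 in the leukemic samples and of 50.2, 30.3, 48.2 and 42.7 in the preleukemic samples. Leukemic replicates 1 and 2 lay above all 4 preleukemic samples in Mad2l1 and leukemic replicate 3 below 3 of them. The log2 fold change was 0.19 ± 0.17 (SE) for Mad1l1 (95% interval -0.19 to 0.58, limma adjusted p = 0.435) and -0.01 without leukemic replicate 1. It was 0.40 ± 0.25 (SE) for Mad2l1 (95% interval -0.18 to 0.99, limma adjusted p = 0.287) and 0.15 without that sample.

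Bub3 (chr7:131560390-131571898) had an FPKM of 113, 108 and 89.1 in the leukemic samples and of 103, 78.1, 105 and 104 in the preleukemic samples. Apart from preleukemic replicate 2, the preleukemic values of Bub3 lay between 103 and 105. Its log2 fold change, 0.09 ± 0.14 (SE), was the smallest of the 9 (95% interval -0.23 to 0.41, limma adjusted p = 0.665), and it was -0.01 without preleukemic replicate 2. Cdc20, the APC/C activator that the checkpoint restrains, had an FPKM of 114, 86.2 and 49.3 in the leukemic samples and of 69.9, 45.7, 69.7 and 63.5 in the preleukemic samples. Leukemic replicate 3 again lay below 3 of the 4 preleukemic samples, and the log2 fold change was 0.35 ± 0.28 (SE), with a 95% interval of -0.31 to 1.02 (limma, adjusted p = 0.406) and 0.09 without leukemic replicate 1. The table lists Cdc20 at chr4:118428092-118437343, which is also the interval it lists for Elovl1, a gene of the opposite strand, so reads shared between them cannot be told apart here. Elovl1 itself ranged from 27.2 to 33.4 FPKM.

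Mad2l1bp (chr17:46147384-46153551), which together with Trip13 takes the checkpoint complex apart, had an FPKM of 28.9, 37.1 and 34.1 in the leukemic samples and of 23.4, 19.4, 27.8 and 24.8 in the preleukemic samples. All 3 leukemic samples lay above all 4 preleukemic samples, with means of 33.4 ± 4.13 (SD, n = 3) and 23.9 ± 3.48 (SD, n = 4), and leukemic replicate 1 was the lowest of its group instead of the highest. The log2 fold change was 0.47 ± 0.14 (SE), a 1.39-fold difference with a 95% interval of 0.15 to 0.79, which passed at the unadjusted p of 0.0104 but not after adjustment (limma, adjusted p = 0.0604). Without leukemic replicate 1 it was 0.57 and passed (limma, adjusted p = 0.0462), the only call of a member in any setting tried. Zw10 (chr9:49055580-49078773), a subunit of the RZZ complex that brings Mad1 and dynein to kinetochores, had an FPKM of 34.9, 28.9 and 26.6 in the leukemic samples and of 22.3, 18.9, 25.3 and 24.3 in the preleukemic samples. The groups did not overlap here either, though leukemic replicate 3 and preleukemic replicate 3 were close, and the log2 fold change of 0.39 ± 0.13 (SE), with a 95% interval of 0.08 to 0.70, did not pass (unadjusted p = 0.0197, limma adjusted p = 0.0867).

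Read against the whole table, 0 of 9 checkpoint genes were called by limma, where 14.7% of the genes tested were called in either direction. Of the genes tested, 8.47% were called higher and 6.26% lower in leukemic samples. An unadjusted p under 0.05 (limma) was found in 2 of the 9 and in 3586 of the 10541 genes tested. Groups did not overlap, with leukemic samples higher, in 2 of 9 members and in 14.9% of all genes (32.0% in either direction). With 9 genes these shares do not set the members apart. All samples are bulk, so fewer cells of a kind and less RNA per cell cannot be told apart for any value given.

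Mad2l1bp, Ttk and Zw10, the 3 members on chromosomes 9 and 17, had 3 of the 4 highest log2 fold changes of the 9. The median log2 fold change of genes tested was 0.35 on chromosome 17 (592 genes, 33.61% called higher) and 0.22 on chromosome 9 (596 genes, 13.09% called higher), and between -0.08 and -0.04 on chromosomes 2, 4, 5, 6 and 7, which carry the other members. Set against the median of its own chromosome, Mad2l1bp was 0.12 higher and stood at the 65.4th percentile of chromosome 17, and Zw10 was 0.17 higher and stood at the 71.1st percentile of chromosome 9. Ttk was 0.36 above its chromosome's median, and Bub1, Bub1b, Cdc20 and Mad2l1 were 0.39 to 0.47 above theirs. For each leukemic sample, the median deviation from the preleukemic mean over a chromosome was taken less the same median over all genes tested. Over chromosome 17 this was 0.35, 0.35 and 0.40 in leukemic replicates 1 to 3, and over chromosome 9 it was 0.32, 0.28 and 0.09. The part of these chromosome-wide values in the differences of Mad2l1bp, Zw10 and Ttk was not tested.

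**Figure D2:**
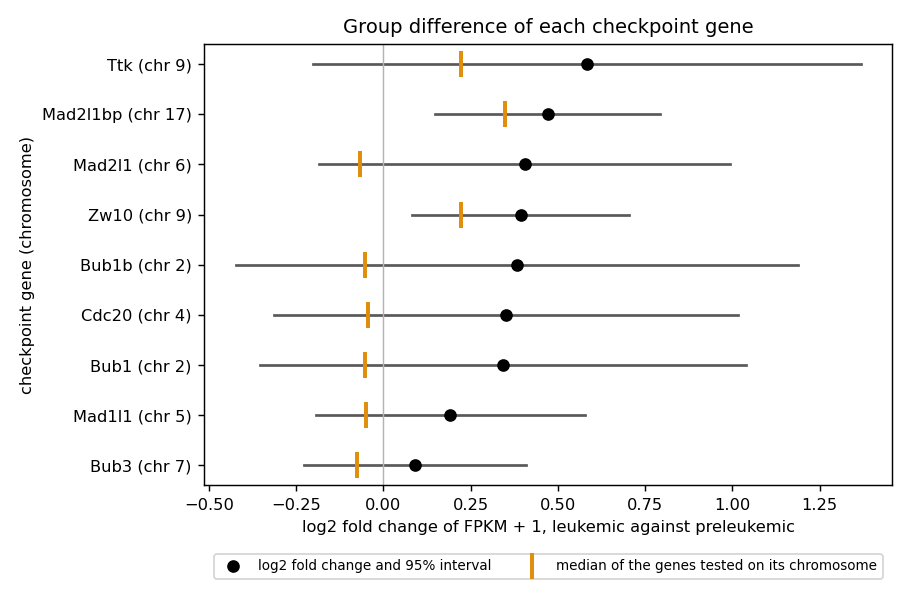
Log2 fold change of FPKM + 1 (leukemic against preleukemic, horizontal axis) of each checkpoint gene with its 95% interval (black point and grey line), and the median of all genes tested on the same chromosome (orange tick). The intervals of Mad2l1bp (0.15 to 0.79) and Zw10 (0.08 to 0.70) lie above 0, and the medians of chromosomes 17 and 9, at 0.35 and 0.22, lie inside them.

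The order of samples was alike in most members, a pattern that was defined after the values were seen. Leukemic replicate 1 was the highest of 7 samples in 8 of 9 members, against 26.14% of all genes tested, and preleukemic replicate 2 was the lowest in 9 of 9, against 16.91%. Leukemic replicates 1, 2 and 3 stood in that order in 8 of 9 members, against 20.67% of all genes, with Mad2l1bp the exception. The summed FPKM of the 9 genes was 608, 445 and 339 in leukemic replicates 1 to 3 and 400, 274, 402 and 371 in preleukemic replicates 1 to 4, so leukemic replicate 3 lay below 3 of the 4 preleukemic samples. On the log2 scale Bub1b, Ttk, Cdc20 and Bub1 had SDs of 0.73, 0.71, 0.61 and 0.59 among leukemic samples and of 0.36, 0.35, 0.29 and 0.35 among preleukemic samples, where the median gene had 0.21 and 0.13. Bub3, Mad2l1bp and Zw10 were steadier, with SDs of 0.18 to 0.19 and of 0.18 to 0.21.

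Genes of the cell cycle showed the same extremes. Of 16 markers of G2 and mitosis, 15 were highest in leukemic replicate 1 and 16 lowest in preleukemic replicate 2, and of 17 genes of the G1/S transition 16 were highest in the first and 17 lowest in the second. Among 14 APC/C subunits the counts were 6 and 4. Leukemic replicate 3 lay below at least 3 of the 4 preleukemic samples in 7 of 9 members. The same held in 8 of 16 G2 and mitosis markers, 0 of 17 G1/S genes and 47.92% of all genes tested. When the mean log2 level of the 16 G2 and mitosis markers was subtracted in each sample, the difference between group means (leukemic minus preleukemic) ran from -0.41 for Bub3 to 0.08 for Ttk and was below 0 for 8 of the 9 members. On that relative scale Mad2l1 differed by -0.10, with SDs of 0.09 among leukemic and 0.03 among preleukemic samples, and Mad2l1bp by -0.03 with SDs of 0.59 and 0.20. Whether the samples differed in their share of dividing cells was not measured, and its part in the checkpoint values was not tested.

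**Figure D3:**
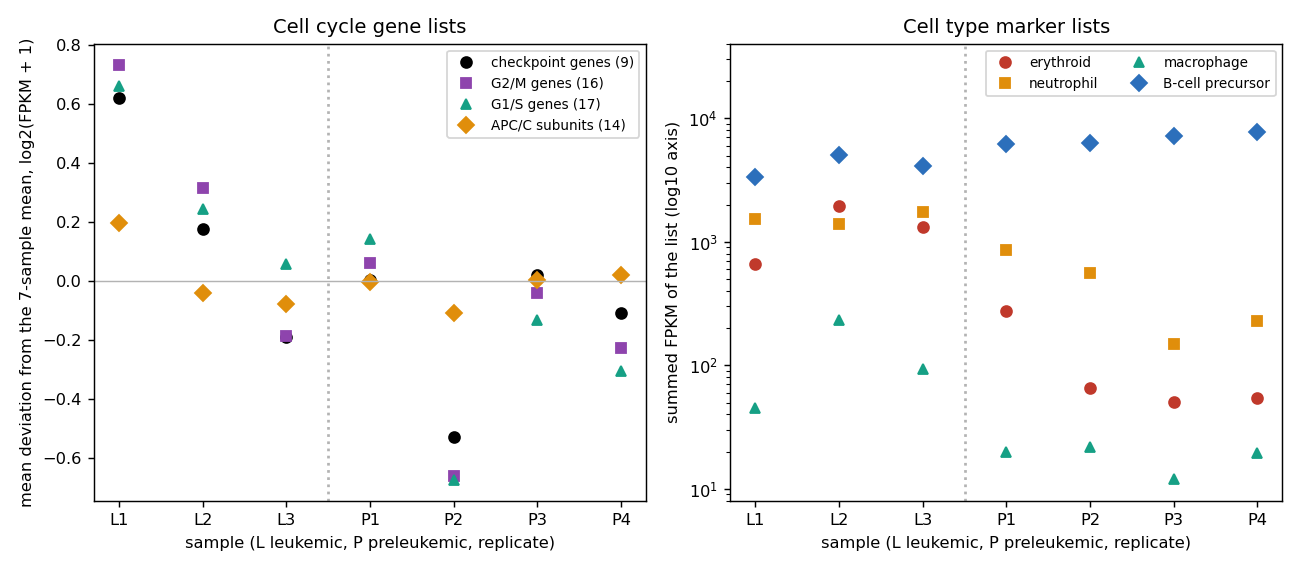
Left, mean deviation of 4 gene lists from the 7-sample mean on the log2(FPKM + 1) scale in leukemic (L1 to L3) and preleukemic (P1 to P4) samples; right, summed FPKM of 4 cell type marker lists on a log10 axis. Checkpoint genes run from 0.62 in L1 to -0.53 in P2, and the G2/M and G1/S genes have the same extremes. In L3 checkpoint and G2/M genes are at -0.19 and G1/S genes at 0.06. APC/C subunits stay between -0.11 and 0.20, and the erythroid sum is lower in L1 (656) than in L2 (1945) and L3 (1314).

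The genes most like the members were found by correlating each gene's deviations from its group means with the mean deviation of the 9 members over the 7 samples. The closest were Nsl1 (a kinetochore protein of the Mis12 complex, r = 0.998), Kif22 (a chromokinesin, r = 0.997), Tubgcp2 (a subunit of the microtubule-nucleating gamma-tubulin complex, r = 0.996), Rtn3 (a reticulon of the endoplasmic reticulum, r = 0.996) and Ndufa9 (a subunit of respiratory complex I, r = 0.995). Among the members themselves r ran from 0.90 for Mad1l1 to 0.99 for Mad2l1 in 8 genes and was 0.13 for Mad2l1bp. These correlations describe 7 samples that share their groups, depth and scaling, members are part of the mean they are set against, and 5% of all genes tested reached 0.904, so they carry no p.

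Ratios of FPKM within a sample do not depend on scaling between samples, and 4 were compared. The tests used differences of log2(FPKM + 1), in which the added 1 leaves a small dependence on scaling. The ratio of Mad2l1 to its receptor Mad1l1 was 2.24, 2.26 and 1.85 in the leukemic samples and 2.04, 1.47, 1.95 and 1.87 in the preleukemic samples, with means of 2.12 ± 0.23 (SD, n = 3) and 1.83 ± 0.25 (SD, n = 4). The log2 difference of 0.21 did not pass (exact permutation test over 35 labelings, two-sided, p = 0.257, adjusted over the 4 ratios p = 0.914). The ratio of Mad2l1 to its inhibitor Mad2l1bp was 2.76 in leukemic replicate 1 but 1.43 and 1.21 in leukemic replicates 2 and 3, and 2.14, 1.56, 1.73 and 1.72 in the preleukemic samples, so the leukemic samples lay on both sides of the preleukemic range. Its group means, 1.80 ± 0.84 (SD, n = 3) and 1.79 ± 0.25 (SD, n = 4), differed by less than the spread. The log2 difference that was tested was -0.07, of the other sign (exact permutation test, p = 0.914).

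The paralogs Bub1b and Bub1 kept a ratio of 3.09 to 3.25 in the 4 preleukemic samples, and of 3.61, 3.04 and 3.12 in leukemic replicates 1 to 3. The ratio of Cdc20 to Mad2l1 was 1.39 to 1.51 in the preleukemic samples and 1.42, 1.62 and 1.19 in the leukemic samples. Neither ratio differed between the groups beyond its spread (exact permutation tests, two-sided, p = 0.8286 and p = 0.686). In both ratios the leukemic samples spread more widely than the preleukemic samples, with SDs of 0.31 against 0.06 and of 0.22 against 0.05, a description that was not tested. The smallest p that 3 samples against 4 allow is 0.0286.

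**Figure D4:**
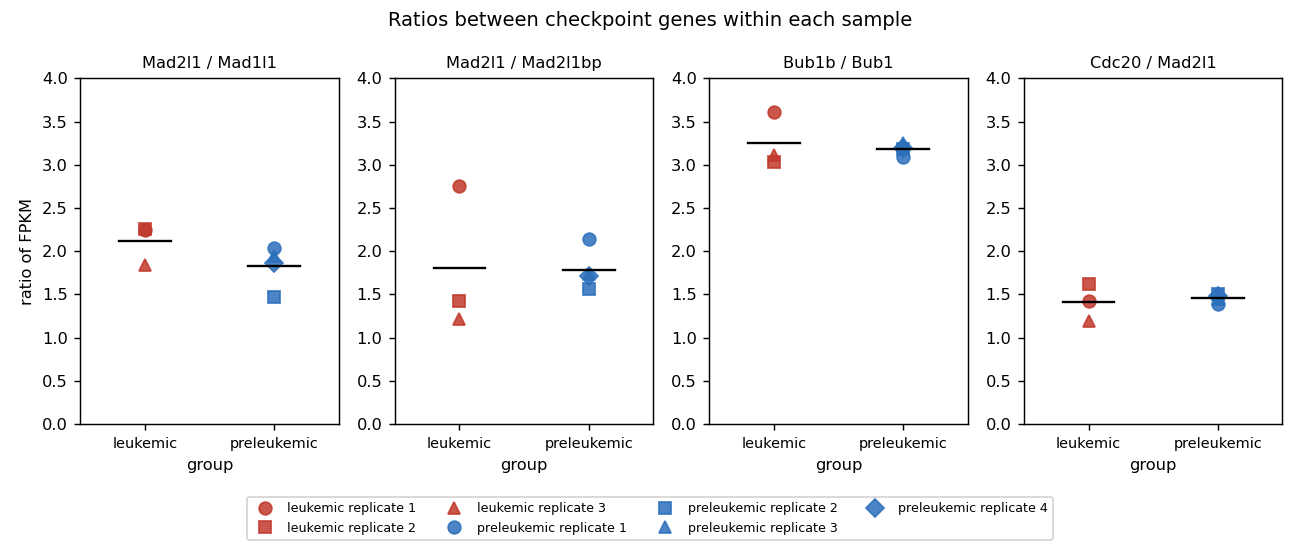
FPKM ratios between pairs of checkpoint genes (vertical axis from 0) in each leukemic (red) and preleukemic (blue) sample, with a black line at the group mean. The groups overlap in all 4 ratios, and the ratio of Mad2l1 to Mad2l1bp parts leukemic replicate 1 at 2.76 from leukemic replicates 2 and 3 at 1.43 and 1.21.

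The other genes of the pathway were read from fixed lists. Of 13 genes of the kinetochore platform that the checkpoint is built on, 0 were called by limma. The list holds the Ndc80 and Mis12 complexes, Casc5, which encodes Knl1, and the rest of RZZ. An unadjusted p under 0.05 (limma) was found in 25 of the 80 genes tested in all 7 lists. It was found in 3586 of all 10541 genes tested, but in 0 of these 13. Their median log2 fold change was 0.37. The most abundant were Pmf1, a Mis12 subunit, with a log2 fold change of -0.03 that was 0.03 without preleukemic replicate 4, and Zwint, a Knl1 partner, with 0.15 that was -0.01 on equal FPKM sums. Of 9 phosphatase and other genes tested that act for or against switching the checkpoint off, 0 were called and the median was 0.09. Usp44, named because the FPKM filter removed it from this list of 10, was not tested. Its FPKM was 0.08, 0.67 and 0.51 in the leukemic samples and 1.62 to 2.39 in the preleukemic samples. Ppp1ca and Ppp1cb, the most abundant catalytic subunits of protein phosphatase 1, were at 0.09 and -0.01, and Ppp1ca turned to -0.19 with quantile normalization and to -0.08 on equal FPKM sums.

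The target of the checkpoint, the APC/C, showed no called subunit among 14, with a median of 0.02 and Anapc5 and Anapc13, its most abundant scaffold and small subunits, at 0.19 and 0.21. Among 5 regulators of the APC/C, Fzr1 (Cdh1), the activator that replaces Cdc20 after mitosis, rose by 0.73 ± 0.17 (SE) on the log2 scale (limma, adjusted p = 0.0356). The ubiquitin-conjugating enzyme Ube2d1 fell by 0.47 ± 0.09 (SE) (limma, adjusted p = 0.0191). In both genes the leukemic and preleukemic values did not overlap: Fzr1 had an FPKM of 51.8, 78.9 and 56.3 in the leukemic samples and of 30.0 to 43.1 in the preleukemic samples, and Ube2d1 one of 27.3 to 29.6 and of 36.5 to 44.3. Ube2c, the enzyme that works with Cdc20-bound APC/C, had a log2 fold change of 0.78 that did not pass (limma, adjusted p = 0.104), and Fbxo5 (Emi1), an APC/C inhibitor, had 0.23. None of 6 APC/C substrates and partners was called, though their median of 0.63 was the highest of the 7 lists, with Ccnb2 at 0.70 and Ccna2 at 0.65.

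Of the 16 markers of G2 and mitosis, 1 was called and the median was 0.48. Mki67, the proliferation antigen Ki-67, rose by 0.74 ± 0.17 (SE) (limma, adjusted p = 0.0316), with an FPKM of 162, 165 and 132 in the leukemic samples and of 103, 68.1, 108 and 89.1 in the preleukemic samples. Top2a, the mitotic topoisomerase, had 0.28 and was -0.01 without leukemic replicate 1. Of 17 genes of the G1/S transition, 2 were called and the median was 0.49. Both license replication origins: Cdc6 rose by 0.85 ± 0.21 (SE) (limma, adjusted p = 0.0374) and Cdt1 by 0.95 ± 0.24 (SE) (limma, adjusted p = 0.0412), whereas Pcna and Rrm2, the most abundant of the list, had 0.32 and 0.47 without passing. All 5 pathway genes called here lost the call in several settings, among them each fit without preleukemic replicate 2, 3 or 4, where 0 of the 80 pathway genes were called. The balance of 4 higher and 1 lower was 4 and 2 with quantile normalization, 4 and 4 on equal FPKM sums, and 1 and 3 with no filter on low values, where Fzr1, Cdc6 and Cdt1 lost the call.

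The labelled cell type was checked with 14 BCP markers, which were all detected, and their summed FPKM was 3332 to 5006 in the leukemic and 6152 to 7756 in the preleukemic samples. Of these, 4 were called lower in leukemic samples by limma, and only 1 of the 14 had a log2 fold change above 0 (median -0.66). Groups did not overlap, with leukemic samples lower, in 9 of the 14 and in 17.1% of all genes tested. Igll1 (a surrogate light chain) was at -1.32 (limma, adjusted p = 0.0244) and Cd79a (a B-cell receptor chain) at -0.48 (limma, adjusted p = 0.0567). Enpep, named after its values were seen because it encodes BP-1, the antigen of the sort, had an FPKM of 19.1, 102 and 77.2 in the leukemic samples and of 134, 210, 180 and 191 in the preleukemic samples. Leukemic replicate 1, the highest in 8 of 9 checkpoint genes, thus had the lowest Enpep and the lowest BCP sum, 3332.

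Among markers of other splenic cells, the erythroid, macrophage and neutrophil sums were higher in every leukemic than in every preleukemic sample. All 11 erythroid markers were called higher, among them Slc4a1 (the red cell anion exchanger) and Alas2 (heme synthesis), and their sum was 656, 1945 and 1314 in leukemic replicates 1 to 3 and 277, 65.2, 50.02 and 54.3 in preleukemic replicates 1 to 4. Of 10 macrophage markers 6 were called higher, with sums of 45.6 to 235 against 11.99 to 21.7. C1qa and C1qc, its most abundant members, had leukemic means of 21.2 and 18.9 FPKM against 2.81 and 1.87, and only the first was called (limma, adjusted p = 0.0402 and 0.0571). Of 9 neutrophil markers 5 were called higher, with sums of 1406 to 1734 against 148 to 852, and S100a8 and S100a9 had leukemic means of 738 and 563 FPKM. None of 6 T and NK cell markers tested was called. Sums over all 8 found were 10.9 to 36.4 against 12.4 to 16.7, with Nkg7 at 7.57 against 1.71 FPKM and Klrb1c at 2.15 against 5.54. Of 5 mature B and plasma cell markers tested 1, Jchain (112 against 20.5 FPKM), was called. Sums over all 6 found were 115 to 208 against 67.8 to 120, and Ms4a1 was at 50.4 against 70.6 FPKM. No defining marker of the erythroid, macrophage or neutrophil lists was at the floor of 0.01 FPKM in any sample. The order of the leukemic samples in the erythroid sum, with replicate 1 lowest, was not their order in the checkpoint sum, with replicate 1 highest. Unlike the other members, Mad2l1bp (28.9, 37.1 and 34.1 FPKM in leukemic replicates 1 to 3) had the order of the erythroid sum. The macrophage sum had that order too (45.6, 235 and 92.9), and the neutrophil sum did not (1524, 1406 and 1734). The part of these other cells in the checkpoint values was not tested. Of the 27 marker calls over all 6 lists, 5, 4 and 4 were left without preleukemic replicates 2, 3 and 4, where Slc4a1 (limma, adjusted p = 0.0690 to 0.0786) and Alas2 (limma, adjusted p = 0.0576 to 0.0700) did not pass, at log2 fold changes of 4.86 to 5.07 and 4.54 to 4.70. The labels state that cells of both groups were sorted, whereas the study's methods give a sort for preleukemic cells and say that leukemic spleen cells for culture were mostly used without enrichment.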

How the data were processed

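RNA from sorted BCP cells of 3 leukemic and 4 preleukemic mice was made into stranded mRNA libraries. The authors deposited FPKM values per gene on mm10 (GRCm38), with a floor of 0.01 and 27 gene names turned into dates by a spreadsheet. The submitters' processing notes name STAR 2.5.0b, Cufflinks 2.2.1, bedtools 2.17.0, Bowtie and DESeq2 without their roles, and whether counting used strand is not given in the sources used here. FPKM is not a count, so the DESeq2 model of the study's methods was not used. Its filter (a sum of at least 10, here of FPKM) and its threshold (0.05) were kept.

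Values were tested as log2(FPKM + 1), which understates changes of low genes, with limma 3.58.1 in R 4.3.3 (lmFit, eBayes with intensity trend, no covariates) and adjusted by the method of Benjamini and Hochberg over 10541 genes. Ratios were compared by exact permutation, on differences of log2(FPKM + 1) within each sample. The checkpoint genes, lists, tests and alternatives were chosen with earlier results of these data known. Named are all 9 members, from each pathway list the 2 genes of highest mean FPKM and up to 3 called genes in each direction, from each marker list the 2 of highest mean FPKM, and the 5 genes most like the members. Knl1 was found as Casc5, and Ahsp and Ighd were not found under those names. Descriptions and figures used Python 3.11.15, numpy 2.4.6, pandas 2.3.3 and matplotlib 3.10.9.

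Depth was read from low FPKM values of 1568 genes with 1 transcript longer than 1500 bases, which step by 1 fragment, assuming a fragment of 200 bases. Searched between 8 M and 20 M fragments, the implied depth was 13.35 M to 15.85 M, at which 77.85% to 82.74% of low values were within 0.1 of a whole number. In a search to 33 M, 3 samples did best near double their value, which steps alone cannot tell apart, and the narrower range was set after that was seen. At 10 FPKM and 1500 effective bases this gives 200.3 to 237.8 fragments per sample, a counting error of 6.49% to 7.07% that covers counting alone. FPKM sums were 507355 to 539887 in the leukemic and 448022 to 471447 in the preleukemic samples, and lowest in preleukemic replicate 2. Equal values above the floor numbered at most 1 between any pair of samples. Same-numbered leukemic and preleukemic samples did not deviate together (r of 0.03, 0.05 and -0.09), so no pairing was used. The fit was tested before use on simulated data with known answers, drawn independently for each gene. It recovered 136 of 200 genes changed by 1 on the log2 scale (8 false calls) and 176 of 200 changed by 2 (12 false calls). Changes as small as those of the members, and effects shared by the genes of a sample, were not simulated.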

Additional observations from a re-analysis of the deposited data

Results flagged for a closer look

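Among the 4 preleukemic samples, 59 sets of values (named genes and list sums) were tested for a sample far from the others by Dixon's criterion, which chance meets in about 1 of 20 groups, and 5 met it. Bub3 had an FPKM of 78.1 in preleukemic replicate 2 against 103 to 105 in the other 3 samples. Ppp1ca, a catalytic subunit of protein phosphatase 1, had 497 in the same sample against 593 to 606. In preleukemic replicate 1 the red cell genes Slc4a1 and Alas2 had 75.6 and 42.4 against 2.54 to 4.49 and 2.82 to 4.29, and the erythroid sum was 277 against 50.02 to 65.2. In that sample the checkpoint genes lay within the range of the other preleukemic samples or, in Bub1, Bub1b, Mad2l1, Ttk and Cdc20, just above it.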

How the results depend on the processing

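Calls of checkpoint genes stayed at 0 of 9 under the 7 other settings and the 7 fits without 1 sample, except without leukemic replicate 1 (range 0 to 1, Mad2l1bp called). The median log2 fold change of the 9 was 0.38, and 0.088 without leukemic replicate 1, 0.61 without leukemic replicate 3, 0.21 without preleukemic replicate 2 and 0.22 on equal FPKM sums. Bub1, Mad2l1, Mad2l1bp, Ttk, Zw10 and Cdc20 stayed above 0 in all 14 alternatives, Bub1b and Mad1l1 in 13 and Bub3 in 12. The 4 ratios moved by less than their spread under each alternative run.

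Fits without 1 sample were first run with the FPKM filter on the sum over the other 6 samples, and then on the genes kept over all 7 so that 1 choice changed at a time; this switch was made after the counts were seen. The 5 pathway calls (4 higher, 1 lower) became 4 (1 higher, 3 lower) with no filter on low values, 8 (4 higher, 4 lower) on equal FPKM sums, 0 with replicate numbers as a block and 0 to 7 without 1 sample (2 and 3 without leukemic replicate 1 and 2, 0 without preleukemic replicate 2, 3 or 4), with equal counts under either filter. The 27 marker calls became 17 with a filter of at least 70, 0 with the block and 4 to 32 without 1 sample (17 without leukemic replicate 3, and 5, 4 and 4 without preleukemic replicates 2, 3 and 4; 19, 5, 4 and 4 with the filter on the other 6). The 1553 calls over all genes (893 higher, 660 lower) became 951 with the filter of 70, 2919 (683 higher, 2236 lower) on equal FPKM sums, 1661 (754 higher, 907 lower) with quantile normalization and 0 with the block (limma, 2429 genes at an unadjusted p under 0.05). They became 149 to 1620 without 1 sample, with 932, 443, 271 and 149 without preleukemic replicates 1 to 4 (935, 457, 273 and 106 with the filter on the other 6). The cause of these changes was not tested. With the block, preleukemic replicate 4 has no partner and adds nothing to the fold change.

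Signs turned on equal FPKM sums for Bub3 (-0.074), Zwint (-0.0076), Ppp1ca (-0.079), Tubgcp2 (-0.087), Rtn3 (-0.086) and Ndufa9 (-0.11), with quantile normalization for Ppp1ca (-0.19) and Ndufa9 (-0.024), and with the block for Pmf1 (0.026). Over the fits without 1 sample, values ran from -0.022 to 0.69 for Bub1b, -0.011 to 0.19 for Bub3, -0.013 to 0.31 for Mad1l1, -0.18 to 0.059 for Pmf1, -0.030 to 0.20 for Ppp1ca, -0.11 to 0.096 for Ppp1cb, -0.033 to 0.41 for Anapc13, -0.014 to 0.47 for Top2a, -0.057 to 0.20 for Tubgcp2, -0.034 to 0.19 for Rtn3 and -0.076 to 0.17 for Ndufa9. The correlations of the 5 most alike genes, recomputed in settings added after the data were seen, stayed between 0.984 and 0.9998. Fzr1, Ube2d1, Mki67, Cdc6 and Cdt1 kept their direction in all 14 alternatives and lost the call in 4 to 7. Ube2c was called without leukemic replicate 3 (1.10), and Enpep on equal FPKM sums and without leukemic replicate 1 or 2. With 3 samples against 4, the 95% intervals of Bub1, Bub1b, Cdc20 and Ttk reach past a log2 change of 1.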
